A study of Mus musculus with 40 samples.

Results

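The genes described here encode the enzymes that switch the pyruvate dehydrogenase complex off and on. They were taken as a named family, the kinases Pdk1, Pdk2, Pdk3 and Pdk4 and the phosphatase catalytic subunits Pdp1 and Pdp2. All 6 were found by symbol among the 23621 rows of the count table, and all 6 passed the filter on low counts in both muscles.

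The pyruvate dehydrogenase complex sits in the mitochondrial matrix and turns pyruvate from glycolysis into acetyl-CoA, the step at which carbohydrate carbon is committed to oxidation. The kinases phosphorylate its E1 alpha subunit and stop it. The phosphatases remove that phosphate and restart it. In skeletal muscle Pdk4 is known as the inducible kinase of fasting and of recovery from exercise, Pdk2 as the kinase made at all times, Pdp1 as the calcium-stimulated phosphatase of contracting muscle, and Pdp2 as a calcium-insensitive form that answers to insulin.

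The samples were muscles of C57BL/6 mice, whose age and sex the labels do not give. The labels name no allele, and a treadmill or a running wheel was the only treatment. Times are zeitgeber times (ZT), in hours from lights on. Quadriceps came from mice that ran to exhaustion on a treadmill at ZT0 or at ZT12 (the session) and were killed at once (+0h, labelled ZT0.5 or ZT12.5) or 3 h later (+3h, labelled ZT3.5 or ZT15.5), and from sedentary mice at ZT0, ZT4, ZT12 and ZT16, with 3 libraries in each of the 8 groups. Gastrocnemius came from mice with access to a running wheel by day, and from mice with access by night, which the labels call controls, taken at ZT4 or ZT16, with 4 libraries in each of the 4 groups. Each run was set against the sedentary group nearest in clock time, ZT0 or ZT12 at +0h and ZT4 or ZT16 at +3h, and wheel access by day against access by night. No gastrocnemius group was without a wheel.

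Totals per library were 27352875 to 79491649 estimated counts in quadriceps and 45010256 to 70033483 in gastrocnemius. Levels are given as CPM, counts scaled to the library total after TMM normalisation between libraries. Markers of skeletal muscle fibres (Acta1, Ckm, Mb, Des, Ttn and Myh4) summed to 104900 to 166000 CPM in quadriceps and to 122300 to 146000 in gastrocnemius, with none at 0. Markers of slow fibres varied the most between quadriceps libraries, from a sum of 93.8 to one of 2687 CPM. Adipocyte markers summed to 649.8 to 3726 CPM there. All of these are bulk samples, in which fewer cells of a type and less RNA per cell cannot be told apart.

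Windows of 300 bases around the gene start, 250 before it and 50 after it, were given by RefSeq (GRCm38.p6) for 5 of the 6 genes; of 2 starts given for Pdk2, the upstream one is shown. The kinase and the phosphatase that rose together 3 h after the ZT12 run, Pdk4 and Pdp2, are shown beside Pdk2, a kinase that passed no test. Capitals mark matches on either strand to the CCAAT box (CCAAT), the E-box (CACGTG) and the core of the cAMP response element (TGACG).

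Pdk4 (chr6:5496229-5496528, minus strand): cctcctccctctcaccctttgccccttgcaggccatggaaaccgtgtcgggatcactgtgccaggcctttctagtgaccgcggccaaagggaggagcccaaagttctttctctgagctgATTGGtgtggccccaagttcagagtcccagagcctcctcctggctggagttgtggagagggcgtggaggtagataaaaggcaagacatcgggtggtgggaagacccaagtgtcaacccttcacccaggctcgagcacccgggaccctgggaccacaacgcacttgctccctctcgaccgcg

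Pdp2 (chr8:104591222-104591521, plus strand): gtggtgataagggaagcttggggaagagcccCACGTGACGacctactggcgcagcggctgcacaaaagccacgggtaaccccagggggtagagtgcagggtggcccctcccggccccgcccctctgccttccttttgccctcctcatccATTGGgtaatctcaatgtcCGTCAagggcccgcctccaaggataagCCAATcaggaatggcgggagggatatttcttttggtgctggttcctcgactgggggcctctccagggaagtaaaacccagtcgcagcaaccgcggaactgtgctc

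Pdk2 (chr11:95041322-95041621, minus strand): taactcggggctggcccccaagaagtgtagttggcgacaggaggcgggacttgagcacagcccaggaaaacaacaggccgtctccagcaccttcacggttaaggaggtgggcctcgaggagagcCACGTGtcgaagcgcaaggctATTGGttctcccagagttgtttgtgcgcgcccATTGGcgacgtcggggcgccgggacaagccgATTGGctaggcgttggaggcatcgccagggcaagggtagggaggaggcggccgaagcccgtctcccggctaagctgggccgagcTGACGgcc

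The Pdk4 window held a single marked match, a CCAAT box 131 bases before the start, a motif found in 37.4% of 32851 mouse promoter windows of this length. The Pdp2 window held an E-box, found in 7.15% of windows and overlapping a cAMP core, with another such core (20.8% of windows) and a pair of CCAAT boxes. The Pdk2 window held an E-box, 3 CCAAT boxes and 1 cAMP core. The FoxO site (GTAAACA), the nuclear receptor core (AGGTCA), the estrogen-related receptor element (TCAAGGTCA), the direct repeat of that core with 1 base between, and the glucocorticoid response element (GNACA and TGTNC with 3 bases between) were also searched on both strands and had no match in these 3 windows. Of all windows, 3.65% held the FoxO site, 16.3% the receptor core, 0.423% the estrogen-related receptor element, 0.0396% the repeat and 0.475% the glucocorticoid element. These matches describe the letters only.

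Per length of the longest coding transcript, the order of the family in quadriceps differed between the +3h ZT12 group and sedentary ZT16 muscle. In the +3h group of the ZT12 session Pdk4 averaged 881 CPM per kb, against 223 for Pdk2, 12.1 for Pdk1, 8.28 for Pdp1, 2.53 for Pdp2 and 0.406 for Pdk3. In the sedentary ZT16 group Pdk2 led with 197 CPM per kb, Pdk4 followed with 64.5, Pdk1 had 13.2, Pdp1 11.7, Pdp2 0.811 and Pdk3 0.320. Pdp1 is therefore the more abundant phosphatase transcript of this muscle in both groups, and Pdk3, with 20 to 55 counts per library, was the most sparsely counted member. Which kinase led without a run depended on the sedentary hour. In sedentary ZT4 muscle Pdk4 led, with 207 CPM per kb against 193 for Pdk2. In sedentary ZT0 and ZT12 muscle Pdk2 led, with 186 and 205 CPM per kb against 108 and 165 for Pdk4. At ZT12 this order rested on the length used. Without division by length, Pdk4 averaged 575 CPM there against 461 CPM for Pdk2. The longest coding transcript of Pdk4 has 3484 bases, and the median of its 2 coding transcripts is 2028.

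The first question was what a run did to the switch enzymes after 3 h of recovery. Pdk4 lies on chromosome 6 (5483351 to 5496278, GRCm38.p6). It measured 2986, 3049 and 3173 CPM at +3h of the ZT12 session, against 169, 264 and 241 CPM in sedentary ZT16 muscle. At +3h of the ZT0 session it measured 1609, 1615 and 2231 CPM, against 734, 728 and 698 CPM in sedentary ZT4 muscle. In both sessions every run library lay above every sedentary library. The log2 fold change was 3.77 ± 0.31 (standard error; adjusted p = 2.78e-07) after the ZT12 run and 1.34 ± 0.29 (adjusted p = 0.00445) after the ZT0 run, by edgeR's quasi-likelihood test over all genes. A gene is called here, and said to have risen or fallen, where its Benjamini-Hochberg adjusted p over all genes tested in that muscle is under 0.05. Leaving out any 1 library of the groups compared kept these values between 3.60 and 3.90 and between 1.16 and 1.42, all still called. Against sedentary muscle at the hour the session began, ZT12 or ZT0, the same +3h libraries gave 2.42 ± 0.30 and 2.28 ± 0.30, so the size of the Pdk4 rise depended on the sedentary hour while the call did not.

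Pdp1, on chromosome 4 (11958183 to 11966450), moved the other way. It measured 29.8, 34.9 and 31.8 CPM in the +3h ZT0 group, against 67.2, 54.4 and 63.3 CPM in sedentary ZT4 muscle. After the ZT12 run it measured 37.5, 32.5 and 34.4 CPM at +3h, against 52.7, 51.0 and 43.8 CPM in sedentary ZT16 muscle. The run libraries lay below all sedentary libraries in both sessions. The log2 fold changes were -0.94 ± 0.09 (adjusted p = 1.21e-06) and -0.50 ± 0.09 (adjusted p = 0.00058). With the sedentary group of the session's start in place of the clock-matched one, Pdp1 gave -0.57 ± 0.09 for the ZT0 run and -1.23 ± 0.09 for the ZT12 run.

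Pdp2, on chromosome 8 (104591472 to 104599026), rose after the ZT12 run. It measured 16.5, 13.9 and 12.7 CPM at +3h, against 5.09, 4.90 and 3.85 CPM in sedentary ZT16 muscle, with no overlap. The log2 fold change was 1.64 ± 0.22 (adjusted p = 3.96e-05), and 1.29 ± 0.22 against sedentary ZT12 muscle. After the ZT0 run the 3 values of 5.16, 5.36 and 6.78 CPM also lay above the sedentary ZT4 values of 4.76, 4.67 and 4.36 CPM, but the difference did not pass the test (0.33 ± 0.22, adjusted p = 0.388, with a 95% interval of -0.15 to 0.80). The phosphatase pair thus parted at +3h of the ZT12 session, where Pdp2 was at 0.413 ± 0.0377 of the Pdp1 level in CPM (SD, n = 3), against 0.0936 ± 0.00489 in sedentary ZT16 muscle (SD, n = 3).

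The other kinases did not pass the test at +3h. Pdk1, the kinase that hypoxia induces in many cells, had a log2 fold change of -0.12 ± 0.07 (95% interval -0.27 to 0.02) after the ZT12 run and -0.07 ± 0.07 (-0.22 to 0.07) after the ZT0 run. Pdk2 had 0.18 ± 0.08 (-0.00 to 0.36) after the ZT12 run, where its libraries of 478, 505 and 522 CPM lay above the sedentary ones of 458, 459 and 412 CPM. After the ZT0 run Pdk2 had -0.02 ± 0.08 (-0.20 to 0.16). Pdk3 had 0.35 ± 0.22 (-0.12 to 0.83) and -0.01 ± 0.24 (-0.51 to 0.49). The members called at +3h were therefore 3 of 6 after the ZT12 run, where 17.2% of all 15097 genes tested were called, and 2 of 6 after the ZT0 run, where 13.6% were.

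**Figure D1:**
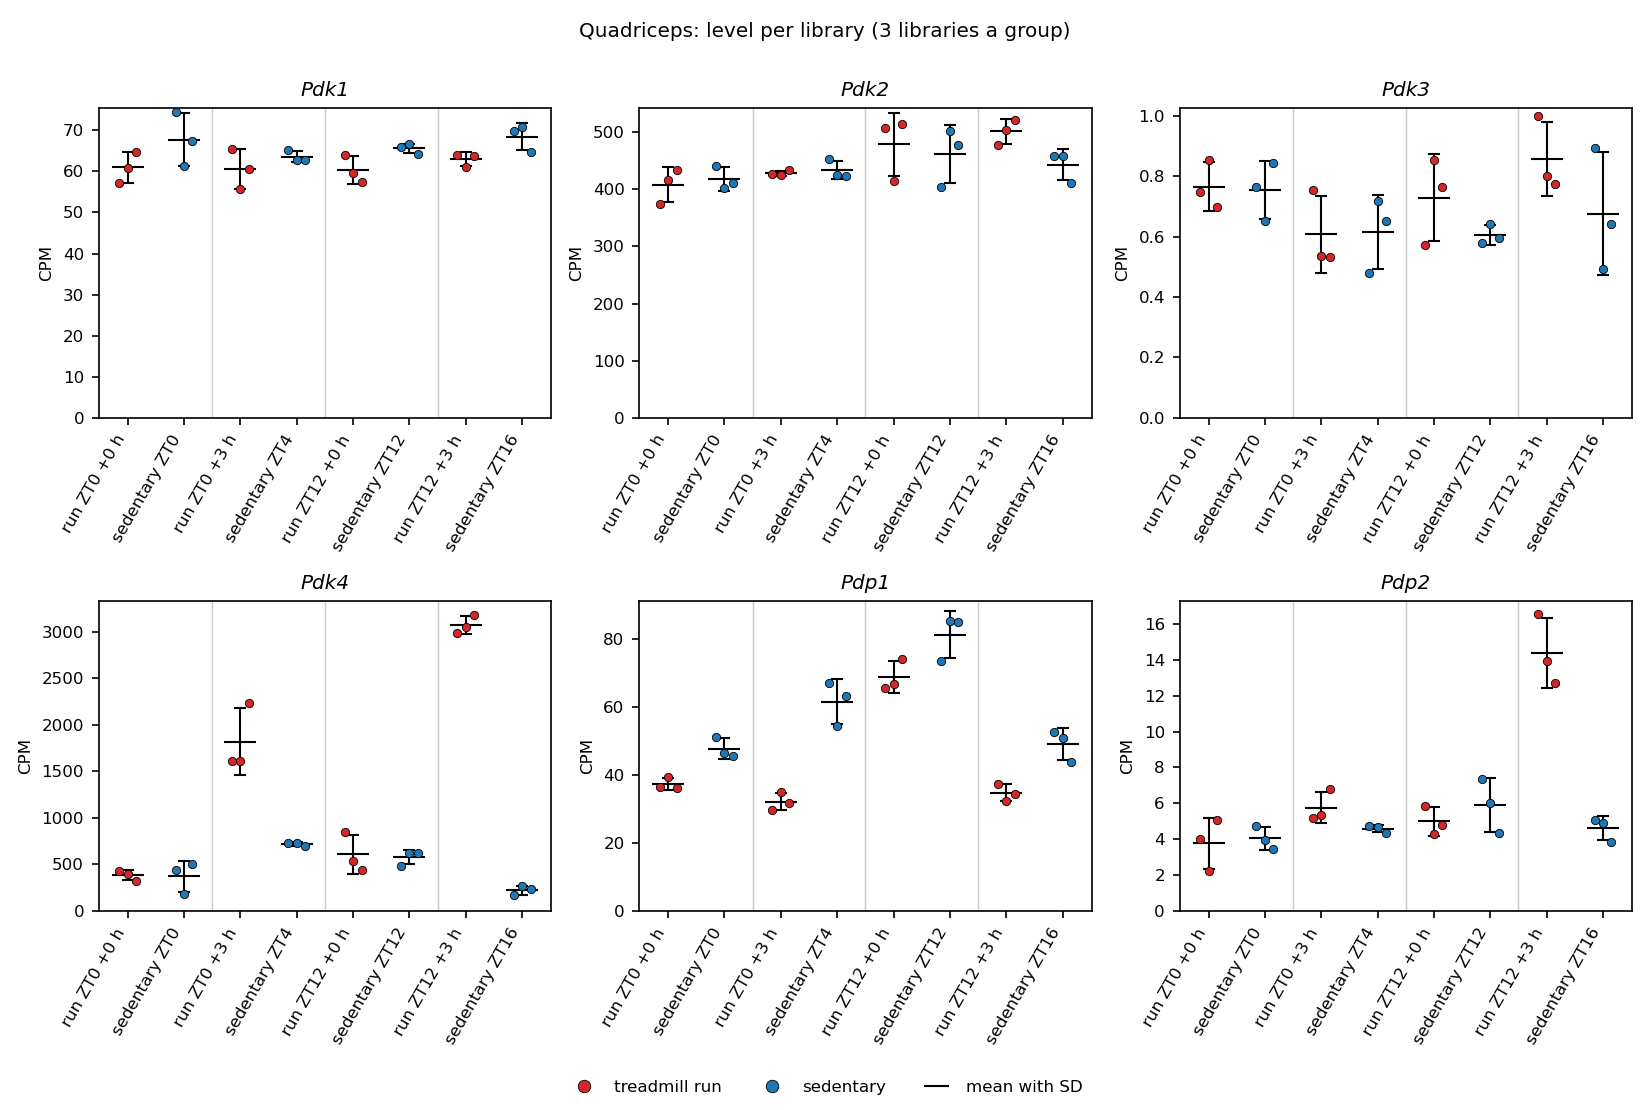
Level of each of the 6 genes in CPM (vertical axes, each from 0) in the 24 quadriceps libraries (points), with the mean and SD of each group of 3. Each run group stands to the left of its sedentary group. Pdk4 reached 2986 to 3173 CPM 3 h after the ZT12 run, against 169 to 264 CPM in sedentary ZT16 muscle, while Pdk1 stayed between 55.8 and 74.4 CPM in all libraries.

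Cell markers that moved with these results are given for the same groups. Of the 6 muscle fibre markers 4 rose at +3h of the ZT12 session, and 3 of the 9 fast fibre markers did. The 10 slow fibre markers had a median log2 fold change of -1.38 with none called, and they summed to 280.4 to 665 CPM at +3h, against 214 to 2687 CPM in sedentary ZT16 muscle. With a score of the slow fibre markers as a covariate, Pdk4 gave 3.77 ± 0.33, Pdp2 1.70 ± 0.22 and Pdp1 -0.50 ± 0.09 after the ZT12 run. With a score of the adipocyte markers they gave 3.81 ± 0.32, 1.56 ± 0.17 and -0.49 ± 0.09, and every one stayed called. No score of the muscle fibre or fast fibre markers was fitted, and their part in the result was not tested.

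At the end of the run, before recovery, little of this was present. Pdk4 measured 434, 399 and 323 CPM in the +0h ZT0 group, against 435, 188 and 504 CPM in sedentary ZT0 muscle. After the ZT12 run it measured 845, 540.0 and 438 CPM at +0h, against 489, 618 and 619 CPM in sedentary ZT12 muscle. The ranges overlapped in both sessions, with 95% intervals of the log2 fold change of -0.56 to 0.63 and -0.52 to 0.68. Pdp1 was already lower at +0h of the ZT0 session, at 36.6, 39.4 and 36.1 CPM, against 51.3, 46.5 and 45.7 CPM in sedentary ZT0 muscle (log2 fold change -0.36 ± 0.09, adjusted p = 0.0198). It was the 1 member called there, where 6.82% of all genes were. This call was lost without sedentary ZT0 replicate 1 (-0.30, adjusted p = 0.13) and without +0h ZT0 replicate 1 (-0.34, 0.0874) or replicate 3 (-0.33, 0.0693). It was also lost with the adipocyte score as a covariate (-0.31, adjusted p = 0.0837); the adipocyte markers, none called, had a median log2 fold change of 1.85 and summed to 950.3 to 3111 CPM, against 963 to 1583 CPM in sedentary ZT0 muscle, and their part in the result was not tested further. Of the 6 endothelial markers 2 were lower, with sums of 256 to 262 CPM, against 284 to 334 CPM in sedentary ZT0 muscle, and their part was not tested.

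After the ZT12 run no member was called at +0h by edgeR or DESeq2, where edgeR called 4.6% of all genes. At an unadjusted p under 0.05 there was 1 of 6 members, beside 2545 of all 15097 genes. Pdp1 measured 65.7, 67.0 and 74.3 CPM there, against 73.5, 85.4 and 85.2 CPM in sedentary ZT12 muscle, and the ranges overlapped by a single library. The log2 fold change was -0.24 ± 0.09 (adjusted p = 0.155). No member, and no gene, passed edgeR's test of a difference in the +0h effect between the 2 sessions (0% called). At an unadjusted p under 0.05 there were 1912 genes and none of them a member, and DESeq2 called 18 genes. Without +0h ZT0 replicate 2, edgeR called 322 genes. For Pdk4 the difference of effects was 0.04 with a 95% interval of -0.80 to 0.89, and for Pdp1 0.12 with one of -0.15 to 0.38.

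**Figure D2:**
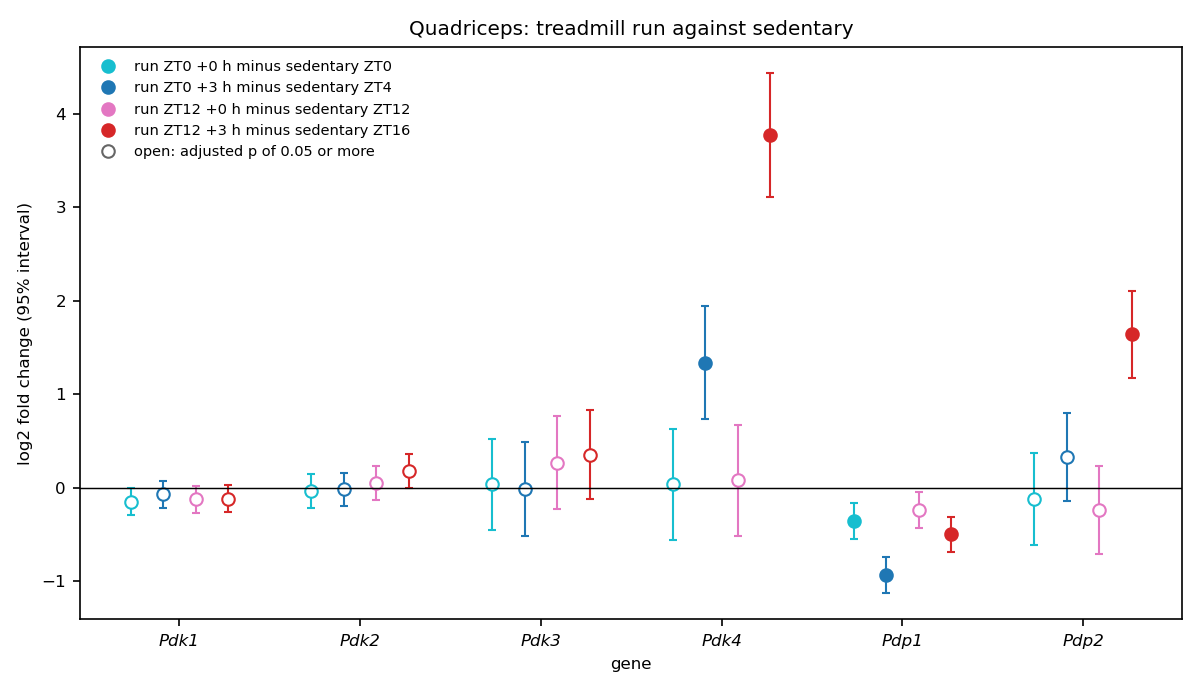
Log2 fold change (vertical axis) of each gene (horizontal axis) in quadriceps after a treadmill run against sedentary muscle, with its 95% interval, for the 2 sessions and 2 recovery times. Filled points had an adjusted p under 0.05. Pdk4 stood at 3.77 and 1.34 at +3h, Pdp2 at 1.64 after the ZT12 run, and Pdp1 below 0 in all 4 comparisons.

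Within a session, the step between +0h and +3h needs no sedentary group, but the time of day moves with it. Recovery and time of day cannot be told apart in this step. In sedentary muscle, ZT4 minus ZT0 gave log2 differences of 0.94 for Pdk4, 0.37 for Pdp1 and 0.19 for Pdp2. For ZT16 minus ZT12 these were -1.36, -0.73 and -0.35. Pdk4 gained 2.24 ± 0.29 on the log2 scale between the +0h and +3h groups of the ZT0 session (adjusted p = 6.12e-05) and 2.34 ± 0.30 in the ZT12 session (adjusted p = 2.67e-05). Pdp1 fell by 0.99 on the log2 scale in the ZT12 session (SE 0.09, adjusted p = 2.88e-07), with values of 37.5, 32.5 and 34.4 CPM at +3h and 65.7, 67.0 and 74.3 CPM at +0h. In the ZT0 session Pdp1 gave -0.22 ± 0.09 (adjusted p = 0.119). Pdp2 rose by 1.53 ± 0.22 in the ZT12 session (adjusted p = 7.78e-05) and gave 0.63 ± 0.23 in the ZT0 session (adjusted p = 0.0726). That last value passed in DESeq2 (adjusted p = 0.0359), without +0h ZT0 replicate 3 (0.88, adjusted p = 0.0216) and with adipocyte score added to the fit (0.96, adjusted p = 0.00226). Members called between +0h and +3h were 1 of 6 in the ZT0 session, beside 14.1% of all genes, and 3 of 6 in the ZT12 session, beside 15.8%. Of the 6 endothelial markers 5 rose between +0h and +3h of the ZT12 session, with sums of 284 to 301 CPM at +3h and 196 to 222 CPM at +0h, and their part in the result was not tested.

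The next question was whether the response at +3h differed between the sessions. Against clock-matched sedentary muscle, the effect of the ZT12 run exceeded that of the ZT0 run by 2.44 ± 0.40 for Pdk4 (adjusted p = 0.00472) and by 1.31 ± 0.31 for Pdp2 (adjusted p = 0.0359), 2 of 6 members where 1.59% of all genes were called. The Pdk4 difference held in all 12 fits that left out 1 library (2.26 to 2.61). The Pdp2 difference held in 2 of those 12, those without +3h ZT0 replicate 3 or +3h ZT12 replicate 3, and in the other 10 its adjusted p was 0.0636 to 0.0874. Pdp1 had a difference of 0.44 ± 0.13 that did not pass in edgeR (adjusted p = 0.0877) and passed in DESeq2 (0.43, adjusted p = 0.0494).

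These differences rest on the sedentary hour that is subtracted. Sedentary Pdk4 averaged 225 ± 49.5 CPM at ZT16 and 719.8 ± 18.9 CPM at ZT4 (SD, n = 3 each), and the +3h groups themselves had a log2 difference of 0.76 ± 0.28 (ZT12 session minus ZT0 session). It did not pass in edgeR (adjusted p = 0.114), although the libraries did not overlap, and it passed in DESeq2 (adjusted p = 0.045) and in a fit of those groups alone (0.0392). With sedentary ZT12 and ZT0 muscle subtracted instead, an alternative chosen after the data were seen, the difference between sessions was 0.14 ± 0.40 for Pdk4 (adjusted p = 0.909) and 0.78 ± 0.31 for Pdp2 (adjusted p = 0.239). For Pdp1 it turned round to -0.66 ± 0.13 (adjusted p = 0.0117). Between the +3h groups directly, edgeR called 1 member, Pdp2, with a log2 difference of 1.32 ± 0.22 (adjusted p = 0.00113), beside 8.05% of all genes. Of the 5 erythroid markers 4 were also higher in the ZT12 session there, summing to 254 to 362 CPM, against 159 to 246 CPM in the ZT0 session, and their part in the result was not tested.

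Between the +0h groups Pdp1 was the member called, at 65.7, 67.0 and 74.3 CPM in the ZT12 session, against 36.6, 39.4 and 36.1 CPM in the ZT0 session (0.88 ± 0.09, adjusted p = 2.57e-06; 11.5% of all genes called). All ZT12 libraries lay above all ZT0 libraries. Sedentary Pdp1 was also higher at ZT12 than at ZT0 (0.77 ± 0.09). The difference in its +0h effect between the sessions was 0.12 ± 0.13 and did not pass. Of the 6 endothelial markers 3 were lower in the ZT12 session, with sums of 196 to 222 CPM, against 256 to 262 CPM in the ZT0 session, and 1 of 6 macrophage markers was lower; their part in the result was not tested. Without +0h ZT12 replicate 2, Pdk2 was called as well (0.32, adjusted p = 0.0184).

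**Figure D3:**
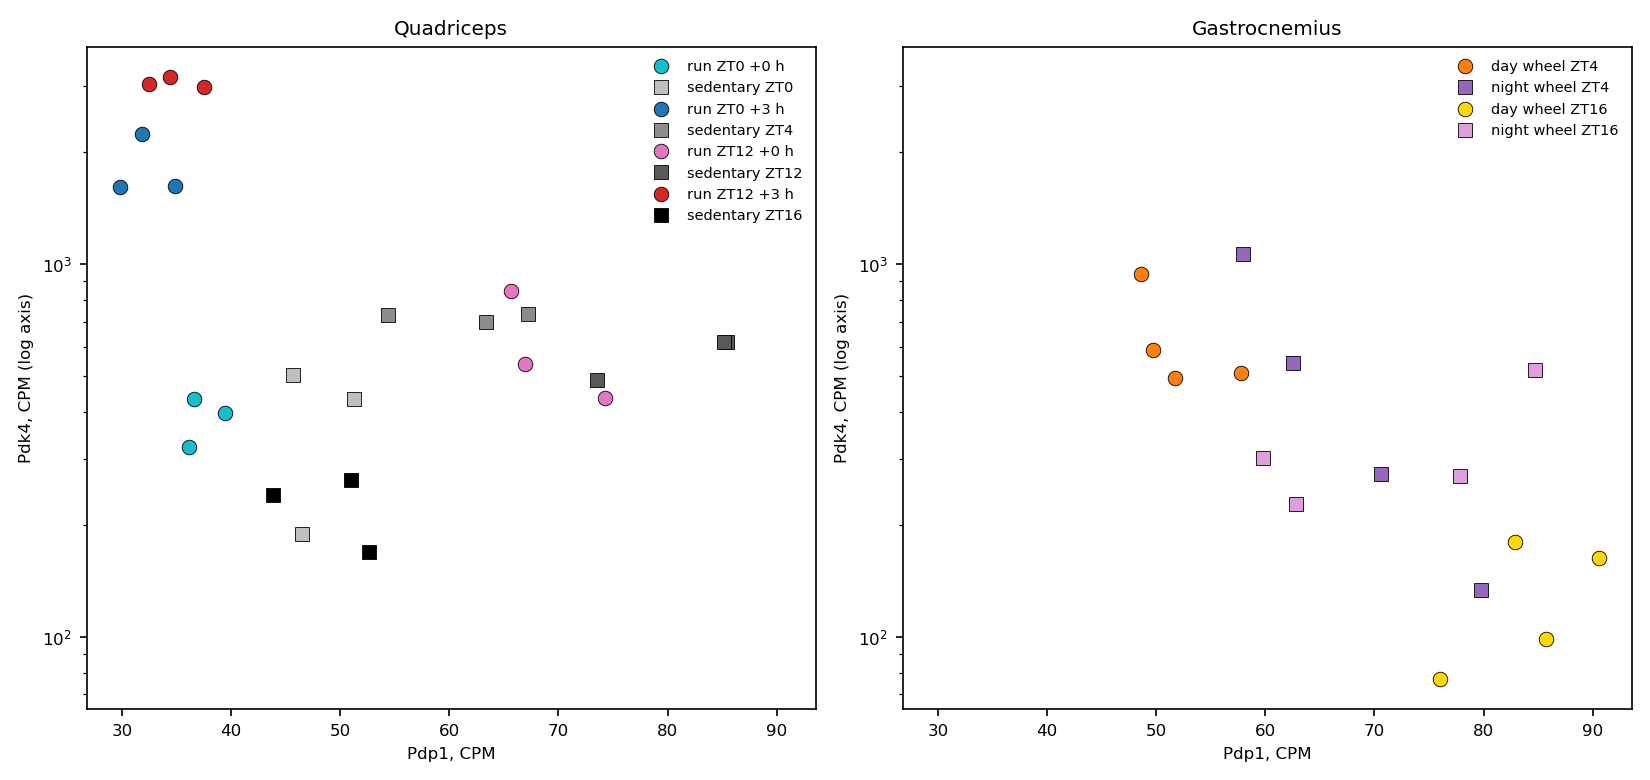
Pdk4 (vertical, log axis) against Pdp1 (horizontal), both in CPM, for the 24 quadriceps libraries (left) and the 16 gastrocnemius libraries (right). The 6 libraries of the +3h groups lie apart at the upper left, with Pdk4 at 1609 CPM or more and Pdp1 at 37.5 CPM or less.

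As a ratio within a library, the inducible kinase and the calcium-stimulated phosphatase separated the +3h groups from the rest. The CPM ratio of Pdk4 to Pdp1 was 88.6 ± 7.74 at +3h of the ZT12 session, against 4.63 ± 1.24 in sedentary ZT16 muscle (SD, n = 3 each). It was 56.8 ± 12.2 at +3h of the ZT0 session, against 11.8 ± 1.39 in sedentary ZT4 muscle. At +0h it was 10.3 ± 1.48 in the ZT0 session and 8.94 ± 3.57 in the ZT12 session, against 7.86 ± 3.54 in sedentary ZT0 and 7.05 ± 0.348 in sedentary ZT12 muscle. The ratio of Pdk2 to Pdp1, in which the kinase passed no test, was 14.5 ± 1.51 at +3h of the ZT12 session, against 9.04 ± 0.349 in sedentary ZT16 muscle.

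Without any run, the family varied with the time of day through Pdk4 and Pdp1. Over the 4 sedentary groups Pdp1 averaged 47.8 ± 3.02 CPM at ZT0, 61.6 ± 6.56 at ZT4, 81.4 ± 6.83 at ZT12 and 49.2 ± 4.70 at ZT16 (SD, n = 3 each). Pdk4 averaged 376 ± 166 CPM at ZT0, 719.8 ± 18.9 at ZT4, 575 ± 75.1 at ZT12 and 225 ± 49.5 at ZT16. A test of any difference among the 4 groups passed for Pdp1 (adjusted p = 1.15e-05) and Pdk4 (adjusted p = 0.00257), 2 of 6 members where 17.1% of all genes were called. The adjusted p was 0.602 for Pdk1, 0.599 for Pdk2, 0.671 for Pdk3 and 0.29 for Pdp2.

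Pdp1 was higher in each ZT12 library (73.5, 85.4 and 85.2 CPM) than in any ZT0 library (51.3, 46.5 and 45.7 CPM), with a log2 difference of 0.77 ± 0.09 (adjusted p = 9.31e-06; 1 of 6 members called, beside 16.1% of all genes). In this comparison the slow fibre markers had a median of -2.31, 4 of 6 endothelial markers fell and 3 of 10 adipocyte markers rose. With the slow fibre score as a covariate Pdp1 gave 0.77 ± 0.10, and with the adipocyte score 0.82 ± 0.10, both called. No endothelial score was fitted, and the part of those markers was not tested. Without sedentary ZT12 replicate 3, Pdp2 was called there too (0.72, adjusted p = 0.0403).

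At ZT16 both genes were lower than at ZT12, Pdk4 with a log2 difference of -1.36 ± 0.29 (adjusted p = 0.00682) and Pdp1 with one of -0.73 ± 0.09 (adjusted p = 5.85e-05), 2 of 6 members beside 9.12% of all genes. Against ZT4, ZT16 muscle had less Pdk4 (-1.68 ± 0.29, adjusted p = 0.00142) and less Pdp1 (-0.33 ± 0.09, adjusted p = 0.0285), beside 7.16% of all genes. This Pdp1 call was lost without sedentary ZT4 replicate 1 or replicate 3, or sedentary ZT16 replicate 2 or replicate 3 (-0.35 to -0.25, adjusted p 0.0575 to 0.151). ZT4 against ZT0 called no member (0.192% of all genes; Pdk4 0.94 ± 0.28, adjusted p = 0.23, and Pdp1 0.37 ± 0.09, adjusted p = 0.102), although the libraries of both genes did not overlap and DESeq2 called both, with adjusted p of 0.0316 for Pdk4 and 0.0135 for Pdp1. At an unadjusted p under 0.05 in edgeR there were 2 of 6 members, beside 1495 of all 15097 genes.

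In order of group means, Pdk4 ran from the +3h ZT12 group through +3h ZT0, sedentary ZT4, +0h ZT12, sedentary ZT12, +0h ZT0 and sedentary ZT0 to sedentary ZT16. Neighbours overlapped in range from sedentary ZT4 to sedentary ZT12 and from +0h ZT0 to sedentary ZT16. Pdp1 was highest in sedentary ZT12, followed by +0h ZT12, sedentary ZT4, sedentary ZT16 and sedentary ZT0, and lowest in the +3h groups, whose ranges overlapped each other. The +0h ZT0 group came just above them, with its range of 36.1 to 39.4 CPM overlapping that of the +3h ZT12 group.

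The genes of the enzyme complex itself were not called against sedentary muscle. None of 10 genes, for its subunits, the phosphatase regulator Pdpr, the pyruvate carrier and lactate dehydrogenase, was called in any of the 4 treadmill comparisons. At +3h their median log2 fold change was 0.01 after the ZT12 run and -0.04 after the ZT0 run, beside -0.00 for all genes in both. The 2 with the smallest p were the same in both, Ldha, a lactate dehydrogenase subunit (0.13 ± 0.08 and 0.12 ± 0.08), and Dlat, the E2 core subunit (-0.11 ± 0.09 in both). In sedentary muscle 3 of the 10 were lower at ZT12 than at ZT0, Dld (-0.25 ± 0.07, adjusted p = 0.0222), Mpc2 of the pyruvate carrier (-0.34 ± 0.10, 0.0282) and Pdhb of the E1 enzyme (-0.20 ± 0.07, 0.047), with a median of -0.17. Between the +0h groups 1 of the 10 was called, Pdpr, the regulatory subunit of the phosphatase, which was higher in the ZT12 session than in the ZT0 session (0.43 ± 0.12, adjusted p = 0.0278).

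The sister switch on the branched-chain ketoacid dehydrogenase moved on its phosphatase side. Ppm1k, the phosphatase that activates that complex, averaged 10.5 ± 1.33 CPM at +3h of the ZT12 session, against 17.9 ± 2.40 CPM in sedentary ZT16 muscle, and 7.72 ± 0.378 CPM in the +3h ZT0 group, against 14.0 ± 1.30 CPM in sedentary ZT4 muscle (SD, n = 3 each). Its log2 fold changes were -0.77 ± 0.13 (adjusted p = 0.000364) and -0.86 ± 0.13 (adjusted p = 0.000226), and at +0h of the ZT0 session -0.46 ± 0.13 (adjusted p = 0.0392). Of the 5 genes of this list, Dbt was the other one called at +3h, after the ZT12 run (-0.33 ± 0.09, adjusted p = 0.0152). The kinase of that complex, Bckdk, gave 0.10 ± 0.06 after the ZT12 run and did not pass. Its value after the ZT0 run, -0.04 ± 0.06, lies outside the naming rule and was picked after it was seen. The list's median was 0.10 after the ZT12 run and -0.17 after the ZT0 run.

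Some of the factors known to control the kinase genes rose at +3h. Of 18 tested, 8 rose after the ZT12 run and 6 after the ZT0 run, with none lower and a median of 0.25 in each, beside -0.00 for all genes. Ppargc1a, the coactivator PGC-1 alpha, averaged 319 ± 53.8 CPM after the ZT12 run, against 29.6 ± 4.79 CPM in sedentary ZT16 muscle (log2 fold change 3.43 ± 0.12), and 237 ± 14.1 CPM after the ZT0 run, against 22.9 ± 1.53 CPM in sedentary ZT4 muscle (3.37 ± 0.12). Nr4a3, an orphan receptor induced by contraction, gave 4.27 ± 0.71 and 4.13 ± 0.72, and Ppard, the PPAR form of oxidative muscle, 0.54 ± 0.09 and 0.43 ± 0.09. Klf15, a glucocorticoid-induced factor, gave 1.31 ± 0.21 (adjusted p = 0.000286) after the ZT12 run. Foxo1 gave 1.34 ± 0.26 (adjusted p = 0.00194) after the ZT0 run. At +0h Nr4a3 rose in both sessions (4.16 ± 0.74 at ZT0 and 4.96 ± 0.78 at ZT12) and no other gene of the list rose. Nr1d1, a repressor of the circadian clock, was lower at +0h of the ZT12 session (-0.79 ± 0.20, adjusted p = 0.0292).

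Genes of fatty acid use that PPAR factors control, the set to which Pdk4 is usually counted, rose in part. Of 21 tested, 7 rose after the ZT12 run and 4 after the ZT0 run, with medians of 0.20 and -0.05, beside -0.00 for all genes in both. Cpt1a, a carnitine palmitoyltransferase, gave 1.62 ± 0.12 and 0.54 ± 0.11, the uncoupling protein Ucp3 2.33 ± 0.29 and 1.33 ± 0.28, and the thioesterase Acot2 2.07 ± 0.21 and 0.82 ± 0.21. The effect of the ZT12 run exceeded that of the ZT0 run for Cpt1a (1.09 ± 0.16, adjusted p = 0.00182) and Acot2 (1.25 ± 0.29, adjusted p = 0.0331), against clock-matched sedentary muscle as for Pdk4.

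Targets of FoxO and glucocorticoids rose in 9 of 14 after the ZT12 run and 8 of 14 after the ZT0 run, with medians of 1.12 and 0.83. Among them were Gadd45a (1.87 ± 0.15 and 1.27 ± 0.15), Gabarapl1, an autophagy gene (1.88 ± 0.15 and 1.20 ± 0.15), and the metallothionein Mt2 (4.54 ± 0.35 and 4.37 ± 0.35). Pdk1 is itself a known hypoxia target. Of the 14 other hypoxia targets, 2 rose and 1 fell after the ZT12 run and 3 rose and 1 fell after the ZT0 run, with medians of 0.16 and 0.14, beside 17.2% and 13.6% of all genes called in either direction. Hk2, the hexokinase of muscle, rose in both sessions (1.42 ± 0.13 and 1.72 ± 0.13). Those that fell were Ankrd37 after the ZT12 run (-1.02 ± 0.23) and Ero1a after the ZT0 run (-0.40 ± 0.12).

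The last question was how the hours of wheel access bore on the family in gastrocnemius. ZT4 falls in the day and ZT16 in the night. The schedule and any running shortly before sampling therefore cannot be told apart when day access is set against night access. At ZT4 Pdp1 measured 51.8, 49.7, 57.8 and 48.6 CPM with wheel access by day, against 62.6, 70.6, 79.8 and 57.9 CPM with access by night. All day libraries lay below all night libraries, the nearest pair being 57.8 and 57.9 CPM. The log2 difference was -0.38 ± 0.12 (adjusted p = 0.0437), the 1 member called beside 13.1% of all genes. The call held in 1 of 8 fits that left out a library, the one without night ZT4 replicate 4 (adjusted p = 0.0277). In the other 7 the adjusted p was 0.0517 to 0.122. With the replicate number added to the fit as a block, the call was lost too (adjusted p = 0.0742). Of 6 endothelial markers 4 fell in the day group, with sums of 229.7 to 254 CPM, against 277 to 303 CPM by night, and their part in the result was not tested.

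Pdk4 at ZT4 measured 494, 588, 511 and 943 CPM by day, against 542, 273, 134 and 1067 CPM by night. The night libraries spanned the whole range of the day libraries, and the log2 difference was 0.33 ± 0.54 (95% interval -0.84 to 1.50). In the same libraries 8 of the 18 kinase-linked factors rose and 2 fell, led by Ppargc1a with 144 ± 39.4 CPM by day, against 28.8 ± 0.760 CPM by night (SD, n = 4 each; 2.32 ± 0.24, adjusted p = 0.00011) and Nr4a3 (3.80 ± 0.47, adjusted p = 0.00036). None of the 21 PPAR targets of fatty acid use was called, with a median of 0.06, beside -0.01 for all genes. Of the pyruvate dehydrogenase list, Mpc1 (0.17 ± 0.04, adjusted p = 0.00743) and Dld (0.15 ± 0.05, adjusted p = 0.0467) rose.

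At ZT16 no member was called between the schedules by edgeR or DESeq2, where edgeR called 0.565% of all genes. At an unadjusted p under 0.05 there was 1 of 6 members, beside 1942 of all 14523 genes. Pdk4 measured 179, 98.4, 162 and 77.0 CPM by day, against 270.0, 226, 301 and 518 CPM by night, with no overlap. The log2 difference was -1.35 ± 0.55 (adjusted p = 0.301; 95% interval -2.55 to -0.15). Pdp1 measured 82.9, 85.7, 90.6 and 76.0 CPM by day, against 77.9, 62.8, 59.8 and 84.7 CPM by night (0.23 ± 0.12, adjusted p = 0.41).

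Set by time of day, the day-wheel mice had opposite changes of the pair. At ZT16 against ZT4 their Pdk4 was lower (-2.29 ± 0.57, adjusted p = 0.0164) and their Pdp1 higher (0.69 ± 0.12, adjusted p = 0.00109), 2 of 6 members beside 14.9% of all genes, and the libraries of both genes did not overlap. The Pdk4 call was lost without day ZT16 replicate 2 (-2.18, adjusted p = 0.0507). The CPM ratio of Pdk4 to Pdp1 was 1.53 ± 0.543 at ZT16 and 12.4 ± 4.83 at ZT4 by day (SD, n = 4 each). In night-wheel mice no member was called between ZT16 and ZT4 by edgeR or DESeq2, beside 18.8% of all genes. At an unadjusted p under 0.05 there was 1 of 6 members, beside 4581 of all 14523 genes. There Pdk4 gave -0.62 ± 0.54 (adjusted p = 0.483), Pdp1 0.08 ± 0.12 (adjusted p = 0.706), and the ratio ran from 3.47 to 6.12 at ZT16 and from 1.68 to 18.4 at ZT4.

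The test of this difference between schedules passed for Pdp1 (0.61 ± 0.16, adjusted p = 0.0296; 1 of 6 members, beside 9.74% of all genes) and did not for Pdk4 (-1.68 ± 0.77, adjusted p = 0.211). With the replicate number added to the fit as a block, the Pdp1 call was lost (adjusted p = 0.0591). It held in 8 of 16 fits that left out a library. It was lost without replicate 2 or 3 of the night ZT4, night ZT16 or day ZT16 group, and without replicate 2 or 4 of the day ZT4 group (0.53 to 0.60, adjusted p 0.0525 to 0.0641). Pdk1, Pdk2, Pdk3 and Pdp2 were not called in any gastrocnemius comparison. Their ranges over the 16 libraries were 58.4 to 77.7 CPM for Pdk1, 462 to 570 CPM for Pdk2, 0.444 to 0.911 CPM for Pdk3 and 2.74 to 5.47 CPM for Pdp2.

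**Figure D4:**
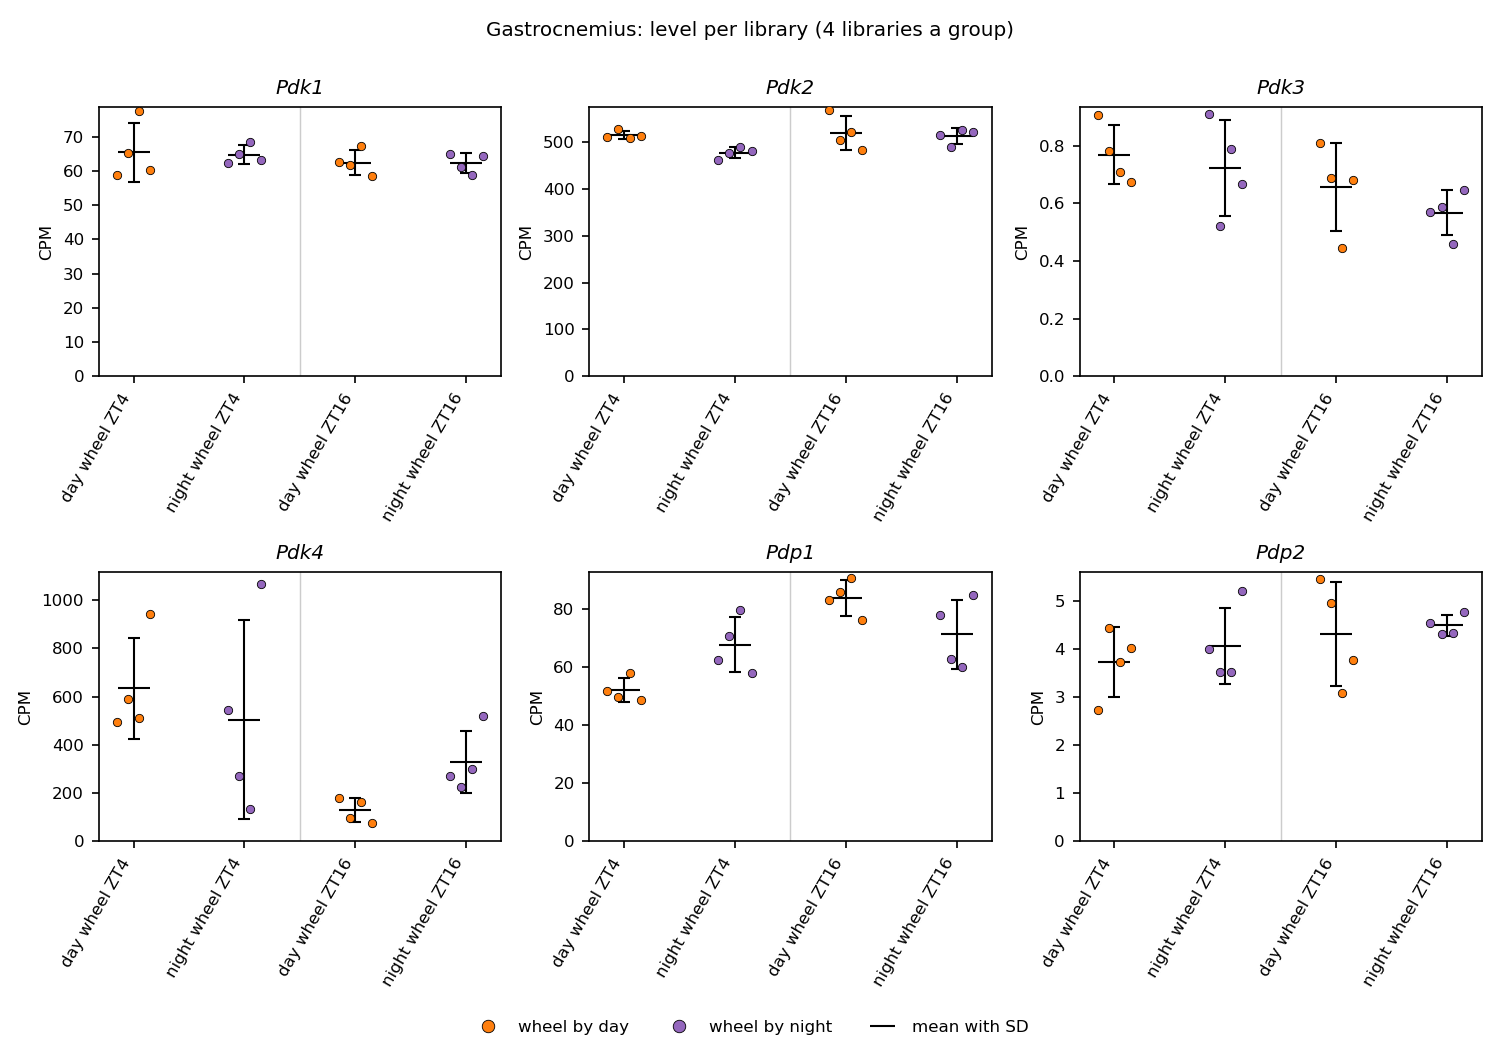
Level of each gene in CPM (vertical axes, each from 0) in the 16 gastrocnemius libraries (points) by wheel schedule and time, with the mean and SD of each group of 4. By day, Pdk4 averaged 129 CPM at ZT16 and 634 CPM at ZT4, and Pdp1 83.8 CPM at ZT16 and 52.0 CPM at ZT4.

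Genes whose pattern was most like that of each member were sought by Pearson correlation of log2 CPM over the 24 quadriceps libraries, which share groups, so the values are descriptions. For Pdk4 they were Cpt1a (0.945), Npc1 (0.924), Tcp11l2 (0.922), Nr6a1 (0.920) and Tmem140 (0.918). For Pdp1 they were Lin52 (0.927), Dnal1 (0.915), Zfp445 (0.902), Mepce (0.893) and Apbb2 (0.890). Pdp2 lay nearest to the nuclear noncoding RNA Neat1 (0.899), ahead of Wdr45 (0.864), Tbcd and Gucd1 (both 0.858) and Fscn2 (0.855). For Pdk2 they were Calcoco1 (0.910), Ptp4a3 (0.869), Ipo13 (0.858), Pnmt (0.854) and Ccdc97 (0.851). For Pdk1 they were Mpped2 (0.836), Tcta and Acat1 (both 0.812), Atp1b1 (0.798) and Mavs (0.787). The sparse Pdk3 had the lowest values, with Mrpl1 (0.729), Mymk (0.667), Tpbg (0.662), Rab11a (0.657) and Pdpn (0.649).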

How the data were processed

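Messenger RNA was measured in 24 quadriceps and 16 gastrocnemius libraries, each on 2 lanes, with a stranded mRNA kit, per the labels' protocols. The authors deposited estimated counts per gene and lane. Per the submitters' processing notes, the tools included kallisto 0.46.2, DESeq2 1.26.0 and bcl2fastq 2.20.0.422, and the builds GRCm38.p6 and mm10. The annotation and the step from transcripts to genes are not given in the sources used here. Lanes were summed and rounded. Of 23621 identifiers, 23614 matched RefSeq symbols.

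Each muscle was fitted whole with edgeR 4.0.16 (limma 3.58.1, R 4.3.3; robust quasi-likelihood, TMM, minimum count 10), leaving 15097 genes in quadriceps and 14523 in gastrocnemius. Called means a Benjamini-Hochberg adjusted p under 0.05 over all of them. Values after ± are standard errors for log2 fold changes, taken from the F statistic, and SD for levels. The 95% intervals use 16 or 12 residual degrees of freedom. CPM uses TMM-scaled totals, and lengths are of GENCODE M21 transcripts. The fit was tested on simulated data. The descriptions give each library a number of its own, which is not explained there, and libraries are read as separate animals. The p-values set differences against the spread between these samples, estimated over all groups of a muscle. That spread may be technical in part. Libraries of a group differed by more than sampling noise (chi-square per degree of freedom 6.18 or more).

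The 6 members and the lists were chosen with earlier results of these data known. All 6 members were tested in each comparison, and the values of those not called are not all given here. Up to 4 genes of smallest p per list and the 5 most alike genes per member are named. Alternatives were DESeq2 1.42.0, RLE scaling, no filter, single lanes, a replicate block, fewer groups, marker scores as covariates, other sedentary controls and each library left out.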

Additional observations from a re-analysis of the deposited data

Results flagged for a closer look

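The difference between the ZT12 and ZT0 sessions in the +3h effect stood out for Pdk4, at 2.44 on the log2 scale, and for Pdp2, at 1.31, because a test of the difference itself passed. With sedentary muscle of the session's start subtracted, neither passed. In gastrocnemius the change of Pdp1 between ZT16 and ZT4 differed between wheel access by day and by night by 0.61, again by the test of the difference. Of the 24 sets of 4 gastrocnemius libraries screened for a library far from the others, none was found.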

How the results depend on the processing

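Of 120 tests of a member in a comparison, 25 passed in edgeR, and 18 of these did so under every alternative. Settings changed the number of members called (of 6) as follows. DESeq2 called 3 for the session difference at +3h and 2 between +3h and +0h of the ZT0 session. It called 2 between the +3h groups and 2 between sedentary ZT4 and ZT0. Of all genes it called 448, 2461 and 1528 of 15096 and 166 of 12462 in these comparisons, in that order. The main fit called 240, 2133, 1216 and 29 of 15097. Lane 1 alone called 0 at +0h of the ZT0 session, 1 between sedentary ZT16 and ZT4 and 0 between wheel schedules at ZT4. Of all genes it called 772 and 767 of 14194 in the quadriceps comparisons, against 1029 and 1081 of 15097 in the main fit. Lane 2 alone called 1 for the session difference at +3h and 2 between +3h and +0h of the ZT0 session. Of all genes it called 117 and 1701 of 14170 there, against 240 and 2133 of 15097 in the main fit. It called 0 members between schedules at ZT4. No filter called 0 between schedules at ZT4. The adipocyte score called 0 at +0h of the ZT0 session, 2 between +3h and +0h of that session and 2 between the +0h groups. Of all 15097 genes it called 674, 1836 and 1570 there, against 1029, 2133 and 1740 in the main fit. It called 0 members between schedules at ZT4. Fitting the compared groups only called 2 between the +3h groups, 1 between sedentary ZT16 and ZT4 and 2 between schedules at ZT4. Sedentary muscle of the session's start, added after the data were seen, called 1 for the session difference at +3h, where Pdp1 reversed to -0.66. RLE scaling and the slow fibre score changed no count. The cause of these changes was not tested.

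Leaving out a library in turn gave 0 to 1 member at +0h of the ZT0 session, 1 to 2 for the session difference at +3h, 1 to 2 between +3h and +0h of the ZT0 session, 1 to 2 between the +0h groups, 1 to 2 between sedentary ZT12 and ZT0 and between ZT16 and ZT4, 0 to 1 between schedules at ZT4, 1 to 2 between ZT16 and ZT4 by day, and 0 to 1 for the difference between schedules. The other counts did not change.

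With the replicate number as a block, 0 members were called between schedules at ZT4 (Pdp1 -0.38, adjusted p = 0.0742). For the difference between schedules 0 were called (Pdp1 0.61, adjusted p = 0.0591), and no other member call changed. Same-numbered libraries had a median correlation of deviations of 0.003 over 84 quadriceps pairs and 0.000 over 24 gastrocnemius pairs. Of the libraries, 8 of 24 and 7 of 16 correlated best with their own number. Between the schedules at ZT4 the 4 same-numbered pairs had correlations of 0.118, 0.023, 0.115 and 0.152. Pairs of unlike number there ran from -0.083 to 0.035. The main fit did not take the numbers as pairs, as not all of the 4 values were above 0.1. The values 0.118, 0.115 and 0.152 did lie above every pair of unlike number there. Whether the numbers mark pairs is therefore not settled, and both Pdp1 wheel calls depend on it. Pdk3 had 20 to 55 counts per quadriceps library.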
